A study of Homo sapiens with 64 samples.

Results

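γ-Tubulin and PCNA binding to chromatin was compared between the osteosarcoma line U2OS and a derivative with a stable TUBG shRNA, named shTUBG U2OS. Cells of both lines were taken 3 h after release from a double thymidine block, in S phase. The members are all 311 peaks of the 4 lists deposited for that time, of 2442 peaks in the 24 lists of the series. The U2OS lists held 123 γ-tubulin and 104 PCNA peaks, and the shTUBG U2OS lists held 33 and 51. Each list stands for 2 immunoprecipitates, so that 8 of the 64 samples are behind the 4 lists. The labels name 1 list for both samples of a group, and no value below therefore has a replicate error. No p-value was computed. Intervals are 95% Clopper-Pearson intervals, which cover counting error only, and how many reads stand behind a list is unknown. All intervals treat peaks as independent, although 74.6% of the 311 peaks lay in 10 clusters of neighbouring peaks, defined below. They are therefore likely too narrow. The shRNA lowers γ-tubulin without removing it. The control is the parental line, whether the shTUBG U2OS cells are 1 clone was not stated in the sources used here, and no list of a non-targeting shRNA was analysed.

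γ-Tubulin nucleates microtubules at the centrosome and also forms a meshwork that reaches the nucleus. PCNA is the ring-shaped clamp that encircles DNA and holds the replicative polymerases during S phase. Mcm5 is a subunit of the helicase loaded at replication origins, and FoxM1 is a transcription factor. Both served here to describe the positions in U2OS cells. Pericentromeres flank the centromeres and consist largely of satellite repeats, and unplaced scaffolds of the human assembly also hold many repeats. Reads from such repeats can be placed on a few collapsed copies.

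A U2OS peak was called lost when no peak of the shTUBG U2OS list of the same antibody shared at least 25% of both spans with it, and kept otherwise. A shTUBG U2OS peak with no such partner was called new. A lost peak is thus a peak missing from a list, which is not the same as a protein missing from the DNA.

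γ-Tubulin lost nearly all of its U2OS positions, while PCNA kept 38 of 104 of its positions. Of the γ-tubulin peaks, 115 of 123 were lost (93.5%, interval 87.6 to 97.2%) and 8 were kept. Of the PCNA peaks, 66 of 104 were lost (63.5%, interval 53.4 to 72.7%) and 38 were kept. With the U2OS list cut to its 51 highest-scored PCNA peaks, the length of the shTUBG U2OS list, 20 of 51 were lost (39.2%), and for γ-tubulin, cut to 33 peaks, 32 of 33 (97%). With the full lists, the loss outside the mitochondrial genome was 93.3% of 120 γ-tubulin peaks and 62.1% of 87 PCNA peaks. The bases covered outside the mitochondrial genome were 60155 bp for γ-tubulin in U2OS and 6706 bp in shTUBG U2OS, an 8.97-fold difference. For PCNA they were 48794 and 22743 bp, a 2.15-fold difference.

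In shTUBG U2OS cells most γ-tubulin peaks were at new positions and most PCNA peaks were at U2OS positions. For γ-tubulin, 25 of the 33 peaks were new (75.8%, interval 57.7 to 88.9%), and for PCNA 11 of 51 were new (21.6%, interval 11.3 to 35.3%). The new PCNA peaks mostly lay inside wider U2OS PCNA peaks, since 10 of the 11 shared at least 1 bp with one. This was so for 9 of the 25 new γ-tubulin peaks. Outside the mitochondrial genome, 1552 of the 6706 bp covered by γ-tubulin in shTUBG U2OS had been covered in U2OS, which leaves 76.9% new. For PCNA, 22514 of 22743 bp had been covered, which leaves 1.01% new.

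The fate of the peaks differed between the antibodies in the pericentromeres. In U2OS, pericentromeres held 69 of the γ-tubulin peaks (56.1%) and 62 of the PCNA peaks (59.6%). All 69 pericentromeric γ-tubulin peaks were lost (100%, interval 94.8 to 100%), and the shTUBG U2OS list held a single pericentromeric γ-tubulin peak, which was new. Of the 62 pericentromeric PCNA peaks, 36 were lost (58.1%, interval 44.8 to 70.5%) and 26 were kept. Pericentromeres made up 3.03% of the γ-tubulin peaks in shTUBG U2OS and 70.6% of the PCNA peaks.

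On unplaced scaffolds other than the ribosomal one, all 20 γ-tubulin peaks were lost (interval 83.2 to 100%), while PCNA lost 14 of 18 and kept 4 (interval of the loss 52.4 to 93.6%), and the intervals overlap. On ribosomal DNA, the repeated genes for ribosomal RNA, γ-tubulin had 10 peaks in U2OS and 9 in shTUBG U2OS, of which 6 were lost, 4 kept and 5 new. No PCNA peak was called on ribosomal DNA in either line at 3 h. At dispersed positions, which lay outside the stretches assigned to the other kinds, γ-tubulin had 14 peaks in each line, and 11 were lost, 3 kept and 11 new. No repeat annotation was used, so the dispersed class may hold repeats too. Both PCNA peaks at the nuclear copy of the mitochondrial genome were lost. PCNA had 4 dispersed peaks in U2OS, of which 2 were lost and 2 kept, and 1 new one in shTUBG U2OS. The dispersed class thus held 11.4% of the γ-tubulin list in U2OS and 42.4% of it in shTUBG U2OS.

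**Figure D1:**
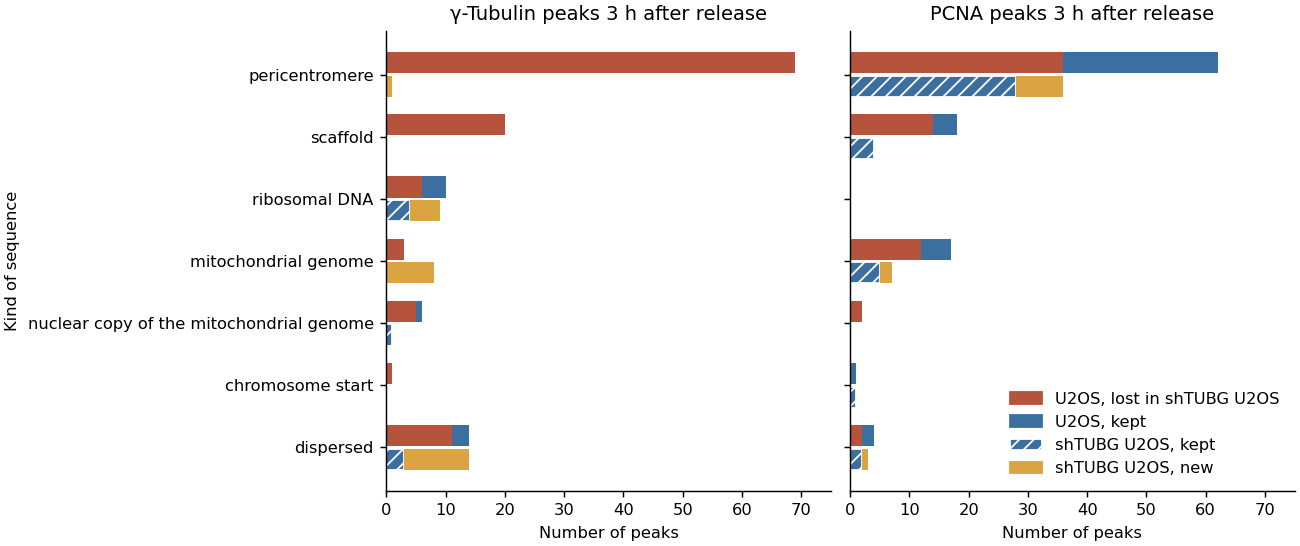
Number of γ-tubulin (left) and PCNA (right) peaks 3 h after release, by kind of sequence. In each pair of bars the upper one is U2OS, split into lost and kept, and the lower one is shTUBG U2OS, split into kept and new. The 69 pericentromeric γ-tubulin peaks of U2OS are all lost, while 26 of 62 PCNA peaks there are kept.

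Peaks within 100 kb of each other in any of the 24 lists were taken as a cluster. The 311 peaks fell into 45 clusters, of which 10 held at least 10 peaks and together 232 peaks (74.6%). γ-Tubulin was called in 34 clusters in U2OS, and 27 of them held no γ-tubulin peak in shTUBG U2OS. PCNA was called in 23 clusters, and 8 of them held no PCNA peak in shTUBG U2OS. Of the 21 clusters with both proteins in U2OS, 14 had PCNA and no γ-tubulin in shTUBG U2OS. γ-Tubulin was thus missing from a larger share of its clusters than PCNA. Many of the 27 clusters, however, had held a single γ-tubulin peak in U2OS.

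How much PCNA was kept varied between the large clusters. On scaffold gl000226 (gl000226:40-14976), all 18 γ-tubulin peaks were lost, and PCNA lost 12 of 16 peaks. In the first cluster of the chromosome 10 pericentromere (chr10:42360689-42409437), all 10 γ-tubulin peaks were lost, but PCNA lost only 3 of 11. Since several wide PCNA peaks there were called as narrower pieces, that cluster held 14 PCNA peaks in shTUBG U2OS, and the bases covered by PCNA were 12802 bp in U2OS and 9182 bp in shTUBG U2OS. In the second cluster of that pericentromere (chr10:42527876-42600571), all 7 γ-tubulin peaks were lost and PCNA lost 6 of 10.

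Clusters with low PCNA retention lay on chromosomes 2 and 16. At chr2:92268981-92326127, all 15 γ-tubulin peaks and 7 of 9 PCNA peaks were lost. At chr16:46386368-46435571, all 9 γ-tubulin peaks and 7 of 8 PCNA peaks were lost. At chr18:18517125-18520338, which held 8 peaks in the 4 lists, all 5 γ-tubulin and all 3 PCNA peaks were lost. Higher retention was seen on chromosomes 11 and 19. At chr11:51579359-51591344, 6 of 6 γ-tubulin peaks but 2 of 6 PCNA peaks were lost, and at chr19:27731873-27740356, 6 of 6 and 1 of 4. At chr7:61967165-61979460, the values were 5 of 5 and 3 of 5. The loss of γ-tubulin was complete in each of these pericentromeric clusters, so the differences between them are differences in PCNA.

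**Figure D2:**
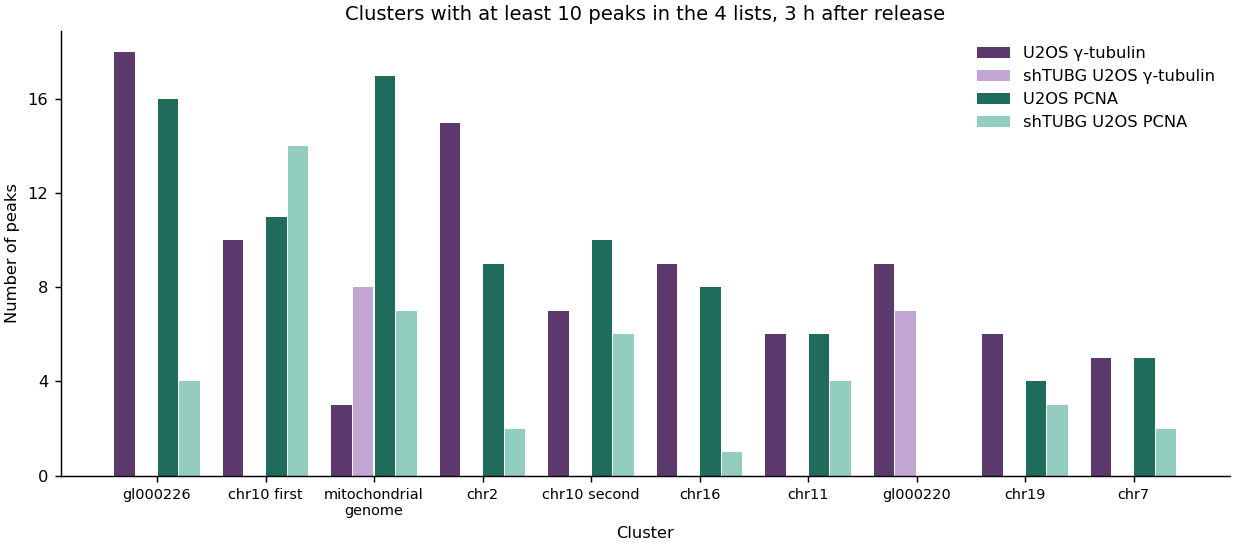
Number of peaks in each of the 4 lists, in the 10 clusters with at least 10 peaks, 3 h after release. Light purple bars (γ-tubulin in shTUBG U2OS) are present only for the mitochondrial genome, with 8 peaks, and scaffold gl000220, with 7, and light green bars (PCNA in shTUBG U2OS) range from 1 on chromosome 16 to 14 in the first chromosome 10 cluster, with none on gl000220.

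**Figure D3:**
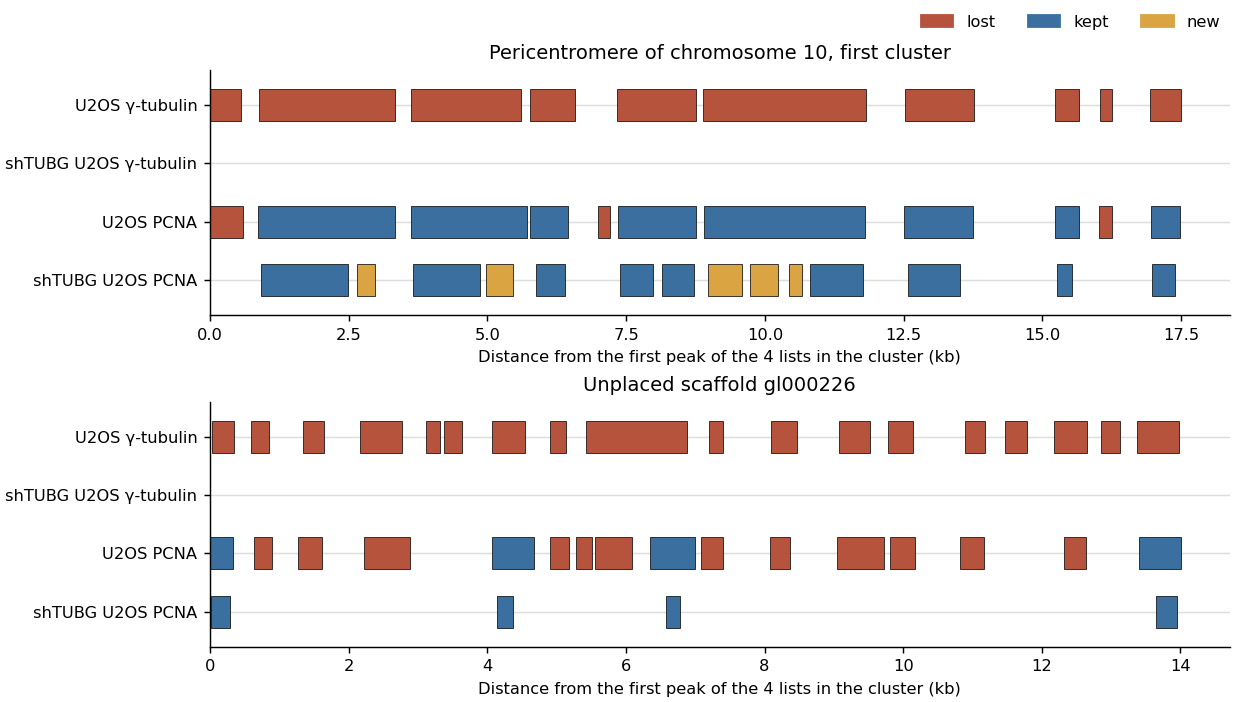
Position and width of the peaks of the 4 lists in the first cluster of the chromosome 10 pericentromere (top) and on scaffold gl000226 (bottom), as the distance in kb from the first peak, coloured as lost, kept or new. The shTUBG U2OS γ-tubulin row is empty in both, all 10 and 18 U2OS γ-tubulin peaks are lost, and PCNA keeps 8 of 11 peaks at the top and 4 of 16 at the bottom.

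Whether PCNA was lost where γ-tubulin was lost was examined position by position. The U2OS lists shared many positions, as 75 of the 123 γ-tubulin peaks overlapped a PCNA peak. Of the 74 U2OS PCNA peaks that overlapped only lost γ-tubulin peaks, 41 were lost (55.4%, interval 43.4 to 67%) and 33 were kept. Of the 29 PCNA peaks that no U2OS γ-tubulin peak matched by 25% of both spans, 24 were lost (82.8%, interval 64.2 to 94.2%), a difference of -27.4 percentage points (Newcombe interval -42.2 to -6.96). These 29 are not all positions free of γ-tubulin. They include all 17 mitochondrial PCNA peaks, of which 12 were lost and 5 kept, and all 17 shared bases with the wide γ-tubulin peaks there. The 12 nuclear ones were all lost (100%, interval 73.5 to 100%). Counting any shared base as overlap, 9 nuclear PCNA peaks had no γ-tubulin in U2OS and all 9 were lost, while 43 of 77 were lost where γ-tubulin was lost. All 33 nuclear PCNA peaks that were kept had overlapped γ-tubulin in U2OS.

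The only PCNA peak at a kept γ-tubulin peak, chr1:566148-566475, was itself lost, so that no position kept both proteins by this rule. In shTUBG U2OS no PCNA peak outside the mitochondrial genome overlapped a γ-tubulin peak of the same line. Merging the 4 lists wherever at least 1 bp was shared gave 147 regions. In 40 of them both proteins were called in U2OS and neither in shTUBG U2OS, and in 34 both were called in U2OS and PCNA alone in shTUBG U2OS. Pericentromeres held 26 regions of each of these types. A further 36 regions had γ-tubulin in U2OS and nothing else, and 16 had γ-tubulin in shTUBG U2OS and nothing else.

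By kind of sequence, the share of PCNA lost where γ-tubulin was lost was 50% in pericentromeres (26 of 52, interval 35.8 to 64.2%) and 76.5% on scaffolds (13 of 17, interval 50.1 to 93.2%). These intervals overlap. The 10 pericentromeric PCNA peaks with no γ-tubulin peak matched by 25% of both spans were all lost.

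Kept and lost PCNA positions differed in the score of the U2OS PCNA peak. Each peak carries a whole-number score from the authors' peak calling, which was compared within a list unless stated. Where γ-tubulin was lost, the kept PCNA peaks had a median U2OS score of 267 (range 73 to 780, n = 33) and a median width of 644 bp. The lost ones had a median score of 86 (range 39 to 212, n = 41) and a median width of 302 bp. Of the 33 kept peaks, 19 scored above the highest lost peak, and 12 of the 41 lost peaks scored below the lowest kept peak. The groups overlapped between scores of 73 and 212.

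The U2OS PCNA list was ranked by score and split into 4 sets of 26 peaks. The highest set kept 22 peaks (84.6%), the second 10 (38.5%), the third 5 (19.2%) and the lowest 1 (3.85%). The γ-tubulin list, split in the same way, kept 1 of 30, 1 of 31, 2 of 31 and 4 of 31 peaks from the highest set down. The same order of PCNA scores was found inside clusters. In 8 nuclear clusters that held both lost and kept PCNA peaks, the kept peaks had the higher median score in 7, and in 6 of them the scores did not overlap. On chromosome 10, the kept peaks of the first cluster scored 222 to 540 and the lost ones 77 to 212, and in the second cluster the scores were 355 to 702 and 17 to 95. The exception was the chromosome 11 cluster, where the 4 kept peaks had a median of 120 and the 2 lost peaks a median of 142.5.

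The 12 nuclear PCNA peaks with no matched γ-tubulin peak were low in the list. They scored 17 to 86, with a median of 42. Limited to nuclear PCNA peaks with a score of 86 or less, a limit chosen after the values were seen, 21 of 22 peaks were lost where γ-tubulin was lost (95.5%, interval 77.2 to 99.9%) and 12 of 12 with no matched γ-tubulin peak. The difference between nuclear positions was -44.6 percentage points without the limit and -4.55 with it. Above the limit, PCNA lost 20 of 52 peaks where γ-tubulin was lost (38.5%, interval 25.3 to 53%), and no nuclear PCNA peak without a matched γ-tubulin peak could be set beside them. Score and γ-tubulin at the position can therefore not be told apart above it.

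**Figure D4:**
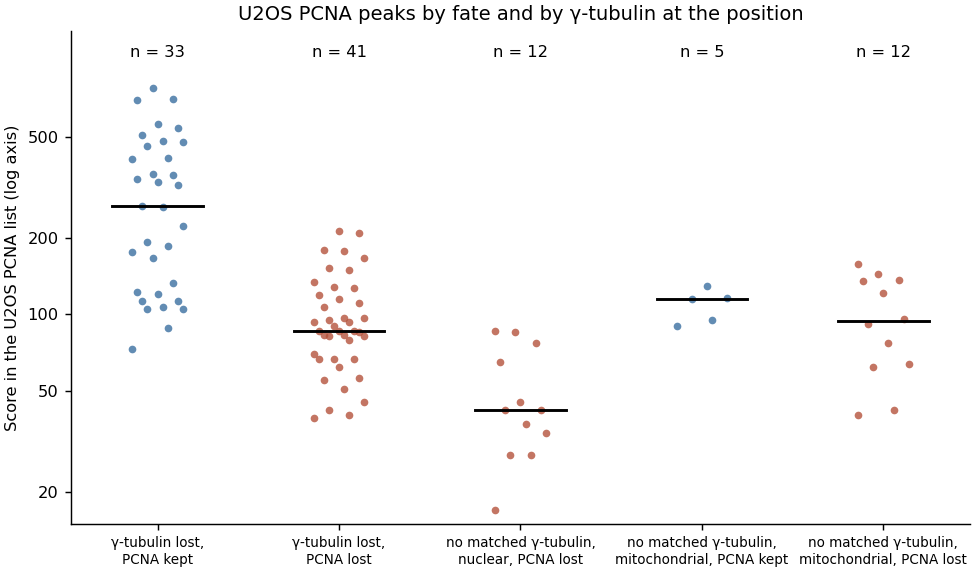
Score of each U2OS PCNA peak (log axis), by fate of PCNA and by γ-tubulin at the position, with horizontal lines at the medians. The single peak with γ-tubulin kept is not drawn. Kept peaks where γ-tubulin was lost reach 780, the lost ones reach 212, and nuclear peaks with no γ-tubulin peak matched by 25% of both spans stay at or under 86. The mitochondrial peaks all share bases with wide γ-tubulin peaks.

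The positions where γ-tubulin was lost and PCNA kept included the highest-scored peaks of both U2OS lists. At chr1:121484025-121485478 the γ-tubulin score was 721 and the PCNA score 780 in U2OS. In shTUBG U2OS, γ-tubulin was not called there and PCNA had a score of 346. At chr10:42598957-42600506, the U2OS scores were 708 for γ-tubulin and 702 for PCNA, and the PCNA score in shTUBG U2OS was 346. Near the chromosome 7 centromere, at chr7:61968623-61969716, the U2OS scores were 507 and 560, and the PCNA score in shTUBG U2OS was 296. All 3 positions lie in pericentromeres and were also called for Mcm5 (scores 421, 407 and 357) and FoxM1 (750, 754 and 623). The other positions of this kind with the highest γ-tubulin scores were chr10:42596734-42598635, chr19:27731886-27732807 and chr10:42386878-42388867, with γ-tubulin scores of 593, 503 and 489 and PCNA scores of 697, 459 and 480.

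The positions that lost both proteins had lower scores. The highest was on a scaffold of chromosome 9, at 34365 to 34589 of 9_gl000199_random, with a γ-tubulin score of 248 and a PCNA score of 209. It was followed by chr7:61967333-61967713, with scores of 204 and 167, in the same cluster as the chromosome 7 position at which PCNA was kept. At chr16:46403495-46403852 the scores were 197 and 128, at chr19:27737389-27737687 they were 180 and 150, and at chr10:42383259-42383810 they were 178 and 212. At chr6:58776272-58779458, a peak of 3187 bp, they were 155 and 152. In shTUBG U2OS at 3 h, no peak of either antibody shared 25% of both spans with these 6 positions, although 2 PCNA peaks with a score of 48 lay inside the wide chromosome 6 position. All 6 were called for PCNA in shTUBG U2OS at 9 h.

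The other antibodies of U2OS marked most of these positions too. Of the 33 PCNA peaks kept where γ-tubulin was lost, 30 (90.9%) overlapped both an Mcm5 and a FoxM1 peak at 3 h. Of the 41 PCNA peaks lost there, 22 (53.7%) overlapped both and 1 overlapped neither. All 33 nuclear PCNA peaks that were kept overlapped an Mcm5 peak, against 33 of 54 that were lost (61.1%). The kept ones also had a higher median score (267 against 84) and median width (644 against 266 bp). Overlap with Mcm5 or FoxM1 can therefore not be told apart from score and width. The samples of the series include no Mcm5 or FoxM1 immunoprecipitate of shTUBG U2OS.

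Mcm5 peaks with PCNA at the same position mark active origins and those without PCNA mark dormant origins in the terms of the study. At 3 h in U2OS, 72 of the 132 Mcm5 peaks were active, and 71 of them overlapped γ-tubulin. In shTUBG U2OS, 36 of the 72 positions had PCNA (50%, interval 38 to 62%) and 1 had γ-tubulin, and all 36 with PCNA lacked γ-tubulin. Of the 60 dormant positions, 19 overlapped γ-tubulin in U2OS, 6 did so in shTUBG U2OS, and 1 had PCNA in shTUBG U2OS. As the active class was defined by the U2OS PCNA list, its share with PCNA in shTUBG U2OS largely repeats the counts above.

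Kept PCNA peaks were narrower in shTUBG U2OS. The 38 kept peaks formed 40 pairs with shTUBG U2OS peaks, because 2 wide peaks were each matched by 2 narrow ones. In 39 of the 40 pairs the shTUBG U2OS peak was narrower, with a median width of 676 bp in U2OS and 365 bp in shTUBG U2OS and a median ratio of 0.613. The score was lower in 39 of the 40 pairs, although scores of separate lists may differ in scale, here and for γ-tubulin below. The exception for both was the start of chromosome 5, at chr5:10168-11784 in U2OS, where PCNA had a score of 73 over 1617 bp in U2OS and 75 over 1631 bp in shTUBG U2OS.

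The 8 kept γ-tubulin peaks lay outside pericentromeres, and PCNA was called at 1 of them in U2OS. They had a median U2OS score of 62.5, against 94 for the 115 lost ones, so the kept peaks were not the highest of the list. In 5 of the 8 pairs the score was higher in shTUBG U2OS. Of the 8, 4 overlapped Mcm5 and none overlapped FoxM1, whereas 88 of the 115 lost peaks overlapped FoxM1 (76.5%). Of these 88, 63 were pericentromeric, where no γ-tubulin peak was kept. The contrast in FoxM1 can therefore not be told apart from the kind of sequence.

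Ribosomal DNA held 4 of the kept γ-tubulin peaks. On scaffold gl000220 the scores were 31 in U2OS and 40 in shTUBG U2OS at gl000220:109252-109496, 49 and 85 at gl000220:155890-156194, and 80 and 46 at gl000220:160968-161265. The other was chr21:9827042-9827424, with scores of 56 and 58. At the nuclear copy of the mitochondrial genome on chromosome 1, which is a stretch of mitochondrial DNA inserted in the nuclear genome, 5 of 6 γ-tubulin peaks were lost. The kept one, chr1:566124-566483, had scores of 203 and 68.

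The 3 dispersed ones were chr1:91852915-91853114 (scores 69 in U2OS and 123 in shTUBG U2OS), chr11:10530752-10530967 (109 and 61) and chr17:40818240-40818439 (44 and 47). The last lies on the long arm of chromosome 17, which also carries TUBG1 and TUBG2, the genes of γ-tubulin. No gene was assigned to a peak here, so whether this peak lies at either gene was not examined. All 8 kept positions were called for γ-tubulin in shTUBG U2OS at another time as well.

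New γ-tubulin peaks were narrow and low, with a median score of 45 and a median width of 246 bp (n = 25), and 12% of them overlapped Mcm5. By kind, 11 were dispersed, 8 mitochondrial and 5 on ribosomal DNA, and 1 was pericentromeric. The highest score was 167 at chr19:55813976-55814223, a position also called for γ-tubulin in U2OS at 2 other times. It was followed by 81 at chr7:43959196-43959411, 75 at gl000220:111831-112117, 74 at 9737 to 9943 of the mitochondrial genome and 72 at chr8:70602319-70602549. A cluster at chr5:17518296-17599509 held 4 new γ-tubulin peaks and no peak of the other 3 lists. Of the 17 new peaks outside the mitochondrial genome, 2 were called for γ-tubulin in U2OS at another time, and 12 (70.6%) in shTUBG U2OS at another time.

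Of the 11 new PCNA peaks, 8 were pericentromeric, 2 mitochondrial and 1 dispersed. The highest scores were 289 at chr10:42392227-42392842 and 198 at chr10:42388230-42388710, both inside wider U2OS PCNA peaks of the first chromosome 10 cluster. Others were at chr10:42598317-42598542, with a score of 74, and at 11117 to 11404 of the mitochondrial genome, with a score of 66. The only new PCNA peak that shared no base with a U2OS PCNA peak was chr17:40766785-40766999, with a score of 66 and a width of 215 bp, in the same cluster as the kept γ-tubulin peak of chromosome 17. It was called for γ-tubulin in asynchronous shTUBG U2OS cells, and for neither γ-tubulin nor PCNA in U2OS at any time. Whether it lies at TUBG1 or TUBG2 was not examined.

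On the mitochondrial genome, the γ-tubulin calls of lost and new rested on the overlap rule. γ-Tubulin had 3 peaks of 4256, 6060 and 6032 bp in U2OS, with scores of 272, 298 and 275, and 8 peaks of 207 to 550 bp in shTUBG U2OS, with scores of 23 to 74. None of them shared 25% of both spans, so that all 3 were called lost and all 8 new. The covered bases were 16348 bp in U2OS and 2314 bp in shTUBG U2OS, and all of the latter lay within the U2OS peaks. PCNA had 17 mitochondrial peaks in U2OS, of which 12 were lost, and 7 in shTUBG U2OS. Counting any shared base as overlap, 12 of the 17 PCNA peaks lay at a γ-tubulin peak that was kept, and 7 of these 12 were lost.

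The positions lost at 3 h were then looked up in the lists of the other times of the same antibody. Lost PCNA peaks were found at other times in shTUBG U2OS more often than lost γ-tubulin peaks. Of the 66 lost PCNA peaks, 22 were called in asynchronous shTUBG U2OS cells, 4 at 7 h and 48 at 9 h, and 58 (87.9%, interval 77.5 to 94.6%) at any of these times. Of the 115 lost γ-tubulin peaks, 12, 4 and 13 were called, and 22 (19.1%, interval 12.4 to 27.5%) at any of them. In U2OS itself, 59 of the 66 lost PCNA peaks and 104 of the 115 lost γ-tubulin peaks were called at another time. The U2OS PCNA list at 7 h held no peak outside the mitochondrial genome, so PCNA loss outside it cannot be measured at 7 h.

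Positions that lost both proteins at 3 h were mostly called for PCNA at 9 h and seldom for γ-tubulin. The shTUBG U2OS lists of 9 h held 155 PCNA and 67 γ-tubulin peaks, against 51 and 33 at 3 h, and the part of list length in these counts was not tested. Of the 41 PCNA peaks lost where γ-tubulin was lost, 39 were called for PCNA in shTUBG U2OS at 9 h. Of the 40 γ-tubulin peaks lost where PCNA was lost, 1 was called for γ-tubulin at 9 h. In pericentromeres, 33 of the 36 lost PCNA peaks were called at 9 h, against 7 of the 69 lost γ-tubulin peaks. These 7 were among the highest of the U2OS γ-tubulin list at 3 h, with scores of 360 to 721, and PCNA had been kept at all 7. Of the 38 kept PCNA peaks, 35 were called in asynchronous shTUBG U2OS cells, 10 at 7 h and 31 at 9 h.

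**Figure D5:**
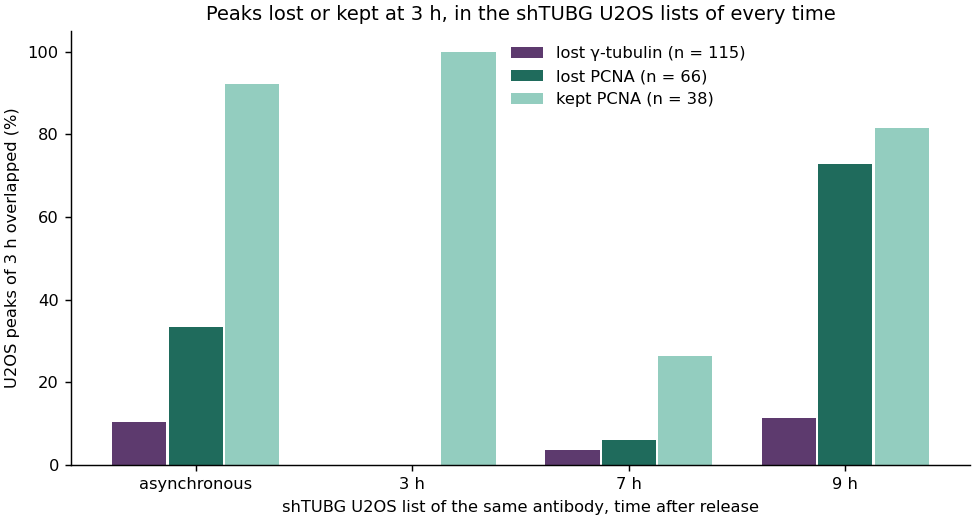
Share of the U2OS peaks of 3 h that were overlapped in the shTUBG U2OS list of the same antibody, for asynchronous cells and each time after release (3, 7 and 9 h), for lost γ-tubulin (n = 115), lost PCNA (n = 66) and kept PCNA (n = 38) peaks. At 9 h, 48 of 66 lost PCNA peaks were called, against 13 of 115 lost γ-tubulin peaks.

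Computed in the same way at each time, the share of U2OS γ-tubulin peaks lost was 78.4% in asynchronous cells (80 of 102), 94.7% at 7 h (71 of 75) and 90.8% at 9 h (139 of 153), and the intervals of the last 2 overlapped that of 3 h, while that of asynchronous cells (69.2 to 86%) lay below it. For PCNA, 48.3% was lost in asynchronous cells (57 of 118, interval 39 to 57.7%) and 22.3% at 9 h (29 of 130, interval 15.5 to 30.4%). The interval at 9 h lies below that of 3 h, while the one of asynchronous cells overlaps it. As depth may differ between lists and each list is 1 pooled value, the difference between times was not tested.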

How the data were processed

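ChIP-seq peaks were compared 3 h after release in U2OS and shTUBG U2OS cells. Chromatin was cut with micrococcal nuclease and precipitated with a mixture of γ-tubulin antisera or with a PCNA antibody. The submitters' processing notes name hg19, Bowtie2 2.1.0, SAMtools and MACS2. The authors deposited peak positions with a whole-number score per peak, whose scale is not given in the sources used here, in 1 pooled list per antibody, time and line. The way in which both samples and their input entered a list, and how duplicate reads, repeats and blacklisted regions were treated, are not given in the sources used here either.

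Peaks overlapped when at least 25% of both spans was shared, which is the study's definition. Overlaps were computed with Python 3.11.15 and intervals with scipy 1.17.1. Positions are on hg19, counted from 1. Kinds of sequence were assigned by round windows: pericentromere, about 1 Mb around centromere gaps; chromosome start, the first 0.1 Mb; ribosomal DNA, scaffold gl000220 and the start of the chromosome 21 sequence. The lost, kept and new counts, except that of new PCNA peaks, were checked on simulated lists and recovered in 200 of 200 runs. The simulated peaks were isolated and matched at unchanged width, so the splitting of wide peaks was not covered. The named positions were every kept γ-tubulin peak outside the mitochondrial genome, up to 6 lost γ-tubulin peaks with PCNA lost and up to 6 with PCNA kept, up to 5 new peaks per antibody (by highest score, at most 2 per cluster), and clusters of at least 10 peaks. Clusters and positions outside this rule (chromosomes 5 and 18) were chosen after their values were seen. Members and lists were chosen with earlier results of these data known. No hg19 sequence or gene model was used, so no sequence is shown and no gene assigned.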

Additional observations from a re-analysis of the deposited data

Results flagged for a closer look

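The number of pericentromeric PCNA peaks moved in opposite directions from U2OS to shTUBG U2OS at 3 h and at 9 h. At 3 h, U2OS had 62 such peaks and shTUBG U2OS had 36, a change of -41.9%, and at 9 h they had 80 and 120, a change of 50%. Each time has 1 pooled list per line, and the difference was not tested.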

How the results depend on the processing

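Of 64 alternative values of the 7 main results, 42 lay inside the 95% interval of the corresponding main value and 22 outside it. Only the difference in PCNA loss could change sign, and it stayed negative in each alternative. Loss of γ-tubulin (93.5%) lay outside only against the shTUBG U2OS lists of all 4 times (75.6%). Against those lists PCNA loss was 7.69%, and it was 1.52% where γ-tubulin was lost and 20.7% with no matched γ-tubulin peak. PCNA loss was 74% with an overlap of 50% of both peaks, and 39.2% among as many U2OS peaks as the shTUBG list holds. New γ-tubulin peaks were 48.5% with overlap by 1 bp and 57.1% as covered bases. New PCNA peaks were 1.96% with overlap by 1 bp, 47.1% with 50% of both peaks, 50% with peaks within 1000 bp merged and 1.08% as covered bases, so that their number rests on the overlap rule. PCNA loss with no matched γ-tubulin peak was 100% on chromosomes 1 to 22 and X, without mitochondrial peaks, with overlap by 1 bp and with merged peaks. The difference in PCNA loss between positions with γ-tubulin lost and with none matched was -51.8 percentage points on chromosomes 1 to 22 and X, -43.9 with overlap by 1 bp, -42.3 when peaks under the median score of their list were left out and -44.6 without mitochondrial peaks. With nuclear PCNA peaks scored at or below 86, an alternative chosen after seeing the data, it was -4.55, with 95.5% of PCNA lost where γ-tubulin was lost. No paired analysis was possible because both samples of a group share 1 list, which also means that leaving out a replicate could not be run. What depth limits could not be measured, since the lists hold no read numbers.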
